A study of Mus musculus with 12 samples.

Results

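The 8 genes described here carry the signal of the extrinsic, death receptor route to apoptosis and its caspases: *Tnfrsf1a*, *Tradd*, *Fadd*, *Ripk1*, *Casp8*, *Cflar*, *Casp9* and *Xiap*. They were taken by gene symbol from the 23022 genes listed in the deposited expression matrix, each matched 1 row, and all 8 were among the 11663 genes with enough expression to be tested. Their RNA was present at 10 TPM or more in every library and moved little between conditions, with the highest of 12 libraries 1.22 to 1.45 times the lowest. *Tnfrsf1a*, which encodes a receptor for TNF, showed the largest log2 difference of the 8 between compared groups, at 49.7 ± 1.24 TPM in treated NTC cells and 65.0 ± 2.63 TPM in treated *Mbnl* DKO cells (mean ± SD, n = 3), next to 50.7 ± 1.15 and 61.6 ± 3.82 TPM in untreated cells. With IFNγ, *Cflar* rose and *Tradd* fell in NTC cells, where 12.1% of all tested genes were called. None of the 8 passed the test in DKO cells, where only 0.78% of all tested genes did. No response of the 8 differed between the genotypes past the threshold (limma, adjusted p = 0.589 for *Cflar* and 0.584 for *Tradd*). Over all tested genes 0.0343% passed in that difference. Of the fits that left out 1 library, 8 of 12 kept the call of *Cflar* and 3 of 12 that of *Tradd*, and correction for GC content and length ended both.

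In death receptor signaling, a ligand of the TNF family binds a receptor whose cytoplasmic death domain recruits adaptor proteins, and the adaptors bring together and activate the initiator caspase 8. Caspase 8 cuts effector caspases directly and also cuts BID, which opens the mitochondrial route through APAF1 and caspase 9. Cytotoxic T cells can kill through this pathway with Fas ligand, TRAIL and TNF, beside their granzymes, and tumor cells can be shielded from it by FLIP (*Cflar*) and by inhibitors of apoptosis such as XIAP.

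The libraries came from B16-F10, a mouse melanoma cell line made to express Cas9, and RNA was measured by RNA-seq in 4 conditions with 3 libraries each. NTC cells carried a non-targeting control guide, which the sample labels write as no template control, and DKO cells carried paired guides against *Mbnl1* and *Mbnl2*, which encode RNA-binding regulators of splicing. Cells of each genotype were left unstimulated or treated with IFNγ, whose dose and duration are given only by the paper. All 4 conditions thus share the Cas9 line, and DKO names a population of edited cells rather than a state without the 2 transcripts. Nothing states that the replicates were separate cultures, so p-values measure the spread between these libraries, which may be technical.

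Both targeted transcripts were still listed in DKO cells, lower than in NTC cells by 0.41 (*Mbnl1*) and 0.20 (*Mbnl2*) on the log2 scale without IFNγ. *B2m*, the light chain of MHC class I, rose with IFNγ by 2.58 in NTC and by 1.95 in DKO cells. Each of 7 melanocyte marker genes stood between 176 and 6780 TPM in every library, whereas 7 of 10 markers of blood, endothelial and epithelial cells were listed at 0 in all libraries and the highest value of any was 1.33 TPM. Summed melanocyte markers ran from 16600 to 17600 TPM in untreated NTC, 18000 to 18600 in treated NTC, 11100 to 11500 in untreated DKO and 12300 to 12400 in treated DKO libraries. Values are TPM, a unit that corrects for transcript length and library size but no longer holds the number of reads, and the listed genes summed to 844185 to 874612 TPM in NTC libraries and 805782 to 827191 TPM in DKO libraries. Both the marker sum and the listed total therefore moved with genotype beside every DKO against NTC result given here. The fits were repeated with libraries scaled to the same listed total, but the part of the marker sum was not tested. In bulk RNA, fewer cells expressing a gene and less RNA per cell cannot be told apart.

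In untreated NTC cells *Casp8* was the most abundant of the 8, at 65.3 ± 1.04 TPM and above 81.5% of tested genes. *Tnfrsf1a* followed at 50.7 TPM (75.5%) and *Cflar* at 44.4 TPM (72.6%), so the receptor, the initiator caspase and its inactive relative all lay in the upper part of the range. *Fadd* stood at 28.9 TPM (60.9%), *Tradd* at 23.2 TPM (54.1%) and *Xiap* at 19.6 TPM (49.1%), near the middle. *Ripk1*, at 12.7 TPM (36.7%), and *Casp9*, at 10.8 TPM (32.9%), were the lowest. Over 5829 tested genes with means in the same range, 11.2 to 73.3 TPM, the median ratio of the highest to the lowest of 12 libraries was 1.35, against a median of 1.30 over the 8 genes, 3 of which lay above that background median.

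**Figure D1:**
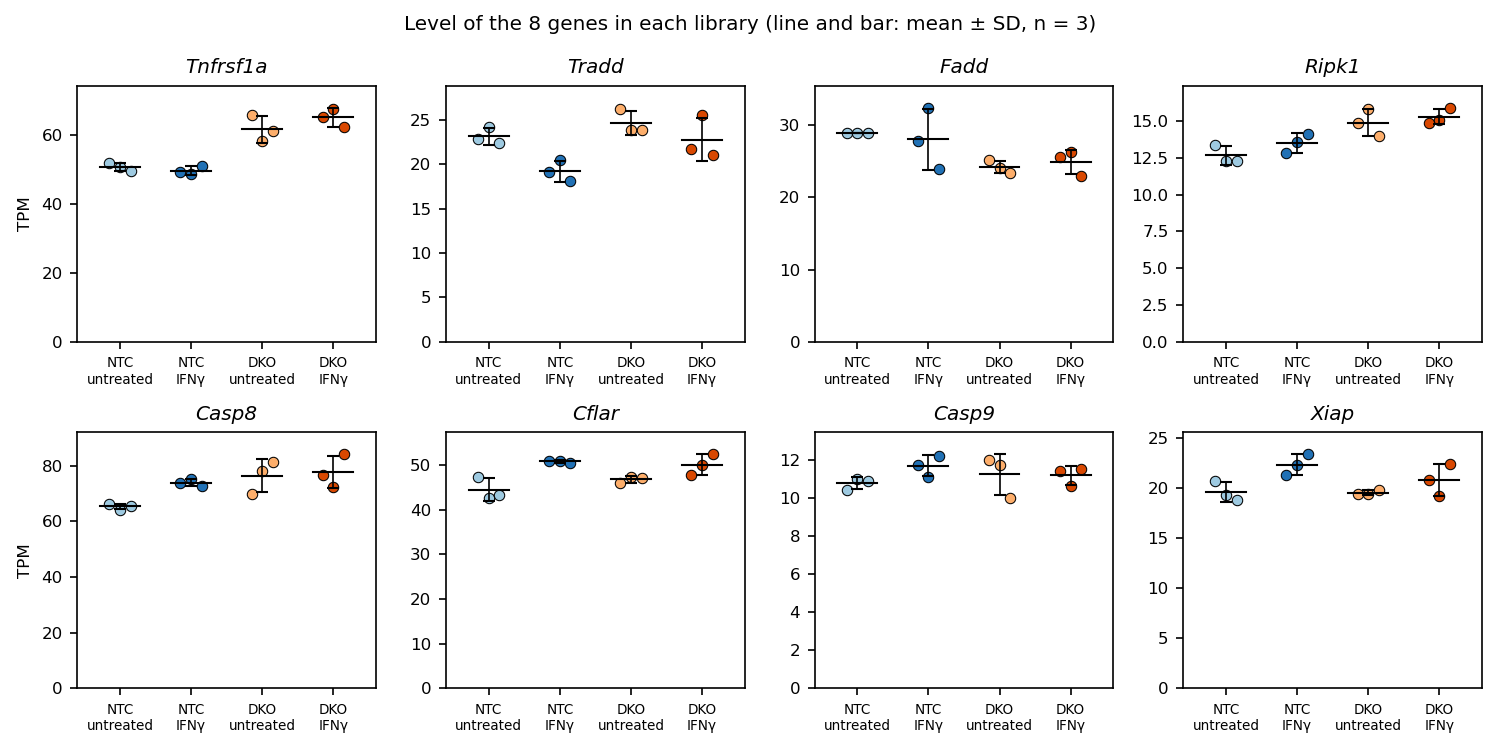
TPM of the 8 genes (vertical axes, from 0) in each of the 12 libraries, by condition on the horizontal axes, with 1 point per library and a line and bar for the mean ± SD of 3 libraries. All 6 DKO points of *Tnfrsf1a* lie above all 6 NTC points, while all 12 points of *Casp9* lie between 10 and 12.2 TPM.

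Among the receptor and its adaptors, the receptor itself separated the genotypes most clearly. *Tnfrsf1a* encodes TNFR1, the main receptor through which TNF can start either survival or death signaling. Its values were 51.8, 50.6 and 49.5 TPM in untreated NTC, 49.3, 48.6 and 51.0 TPM in treated NTC, 65.7, 58.1 and 61.0 TPM in untreated DKO and 65.2, 67.6 and 62.3 TPM in treated DKO libraries. Every DKO library was above every NTC library, whereas treated and untreated libraries of the same genotype overlapped. The log2 difference of DKO against NTC was 0.28 in untreated cells (SE 0.0508, adjusted p = 0.000923) and 0.38 in treated cells (SE 0.0508, adjusted p = 6.19e-05), both past the threshold. Leaving out each of the 12 libraries in turn kept both calls, with differences from 0.23 to 0.32 and from 0.35 to 0.41. The response to IFNγ was −0.03 in NTC (adjusted p = 0.737, 95% interval −0.14 to 0.08) and 0.08 in DKO cells (adjusted p = 0.675, −0.03 to 0.19).

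*Tradd* encodes the adaptor that binds the death domain of TNFR1. It stood at 22.9, 24.2 and 22.4 TPM in untreated NTC, 19.1, 20.5 and 18.1 TPM in treated NTC, 26.3, 23.9 and 23.9 TPM in untreated DKO and 21.7, 25.6 and 21.1 TPM in treated DKO libraries. The treated NTC libraries were the lowest 3 of the 12. *Tradd* fell with IFNγ in NTC cells (log2 difference −0.26, SE 0.0749, adjusted p = 0.0424) and was not called in DKO cells (−0.11, adjusted p = 0.681), but the 2 responses did not differ past the threshold (difference 0.14, 95% interval −0.08 to 0.37, adjusted p = 0.584). With IFNγ, DKO cells held more *Tradd* RNA than NTC cells (log2 difference 0.23, SE 0.0749, adjusted p = 0.0231). The response in NTC was lost without any 1 of the 6 NTC libraries, untreated DKO replicate 2 or 3 or treated DKO replicate 1 (adjusted p up to 0.14), with no filter on low values and under correction for GC content and length (up to 0.157). The genotype difference was lost without treated NTC replicate 1 or 3 or treated DKO replicate 2 (adjusted p up to 0.104), with only the 6 treated libraries and under correction for GC content and length (up to 0.0996).

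*Fadd* encodes the adaptor that joins death receptors to caspase 8. In untreated NTC libraries it was 28.9 TPM in all 3, against 25.1, 24.1 and 23.4 TPM in untreated DKO libraries, with no overlap. The treated libraries were more scattered, with NTC at 27.8, 32.3 and 23.9 TPM and DKO at 25.5, 26.2 and 23.0 TPM. *Fadd* was lower in untreated DKO cells by a log2 difference of −0.25 (SE 0.0853, adjusted p = 0.0372), the only 1 of the 8 genes called lower in DKO. With IFNγ the value was −0.16 (adjusted p = 0.158), and neither response to IFNγ was called (−0.05 in NTC, 0.04 in DKO). Without any 1 of the 6 untreated libraries the untreated call was lost (adjusted p up to 0.109), as it was with no filter or with all libraries scaled to the same total (up to 0.0913).

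*Ripk1* encodes a kinase that sits in the TNFR1 complex and can drive survival, apoptosis or necroptosis. It was 13.4, 12.3 and 12.3 TPM in untreated NTC and 12.8, 13.6 and 14.1 TPM in treated NTC libraries, and 14.9, 15.8 and 14.0 TPM in untreated DKO and 14.9, 15.1 and 15.9 TPM in treated DKO libraries. Within each treatment every DKO library was above every NTC library. *Ripk1* was higher in DKO by 0.22 in untreated cells (SE 0.0641, adjusted p = 0.0165) and by 0.17 in treated cells (SE 0.0641, adjusted p = 0.0427), and IFNγ called it in neither genotype (0.08 and 0.04). The untreated call was lost without untreated NTC replicate 2 or 3 or untreated DKO replicate 2 (adjusted p up to 0.0758). The treated call was lost in 8 of 12 fits without 1 library, those without untreated NTC replicate 2 or 3, treated NTC replicate 1 or 2, untreated DKO replicate 1 or any treated DKO library (up to 0.135), and under the replicate block, with no filter and with only the 6 treated libraries (up to 0.0753).

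The start of *Ripk1* overlaps *Serpinb6a*, on the opposite strand, over chr13:34002363-34002794 (GRCm38), and the libraries were unstranded, so reads there cannot be assigned. *Serpinb6a* was 96.2, 93.8 and 90.4 TPM in untreated NTC against 92.3, 98.1 and 97.2 TPM in untreated DKO libraries (log2 difference 0.04, adjusted p = 0.546), and with IFNγ it was lower in DKO (log2 difference −0.16, adjusted p = 0.0082). *Casp9* overlaps *Cela2a* and *Ctrc*, both listed at 0 in all libraries, and *Fadd* overlaps an antisense transcript that has no row in the matrix.

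The caspase of the receptor complex and its inactive relative lie near each other on mouse chromosome 1, *Cflar* at chr1:58711508-58758884 and *Casp8* at chr1:58795374-58847503 (GRCm38, both on the + strand). *Casp8* encodes the initiator caspase of the pathway. Its values were 66.3, 64.2 and 65.5 TPM in untreated NTC, 73.9, 75.1 and 72.7 TPM in treated NTC, 69.9, 77.9 and 81.4 TPM in untreated DKO and 76.5, 72.5 and 84.1 TPM in treated DKO libraries. The 3 untreated NTC libraries were the lowest of all 12, and the other 3 conditions overlapped. *Casp8* was higher in untreated DKO than in untreated NTC cells by 0.22 (SE 0.0604, adjusted p = 0.0116), a call lost without untreated DKO replicate 3 (adjusted p = 0.0598).

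The response of *Casp8* to IFNγ in NTC cells, 0.18 (95% interval 0.05 to 0.31, adjusted p = 0.0716), missed the threshold although the groups did not overlap. It passed without treated DKO replicate 2 or 3, which enter through the shared estimate of the spread (adjusted p = 0.0462 and 0.0396), and when only the 6 NTC libraries were fitted (0.0287). In DKO cells the response was 0.02 (95% interval −0.11 to 0.15). With IFNγ the genotypes differed by 0.07 (adjusted p = 0.383), a value that passed the threshold at 0.15 with libraries scaled to the same total (adjusted p = 0.042) and at 0.13 under correction for GC content and length (0.0482).

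*Cflar* encodes FLIP, a relative of caspase 8 without protease activity that limits its activation. It was 47.4, 42.6 and 43.3 TPM in untreated NTC and 51.0, 51.0 and 50.4 TPM in treated NTC libraries, and 45.9, 47.3 and 47.2 TPM in untreated DKO and 47.8, 49.9 and 52.5 TPM in treated DKO libraries. In both genotypes every treated library was above every untreated library, the only 1 of the 8 genes for which that held. Over all tested genes this held for 21.8% in NTC and for 9.46% in DKO cells, and the share for both together was not computed. *Cflar* rose with IFNγ in NTC cells by 0.19 (SE 0.0499, adjusted p = 0.0295), and the DKO value was 0.09 (95% interval −0.01 to 0.20, adjusted p = 0.585). The difference between the responses, −0.10 (−0.25 to 0.06, adjusted p = 0.589), did not pass, nor did DKO against NTC without (0.07) or with IFNγ (−0.02). The call in NTC was lost without untreated NTC replicate 2 or 3 or treated NTC replicate 2 or 3 (adjusted p up to 0.111), with libraries scaled to the same total and under correction for GC content and length (up to 0.189).

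*Casp9*, the initiator caspase of the mitochondrial route, was 10.4, 11 and 10.9 TPM in untreated NTC, 11.7, 11.1 and 12.2 TPM in treated NTC, 12, 11.7 and 10 TPM in untreated DKO and 11.4, 10.6 and 11.5 TPM in treated DKO libraries. No comparison called it, with log2 differences between −0.06 and 0.11 in the 4 comparisons of groups. *Xiap*, on the X chromosome, encodes an inhibitor that binds caspases, caspase 9 among them. It was 20.7, 19.3 and 18.8 TPM in untreated NTC and 21.3, 22.3 and 23.4 TPM in treated NTC libraries, which did not overlap, and 19.4, 19.4 and 19.8 TPM in untreated DKO and 20.8, 19.2 and 22.4 TPM in treated DKO libraries, which did. Its response in NTC, 0.18 (95% interval 0.04 to 0.31, adjusted p = 0.0733), missed the threshold and passed it without treated DKO replicate 2 or 3 (adjusted p = 0.0452 and 0.0477). Corrected for GC content and length, that response was −0.03.

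**Figure D2:**
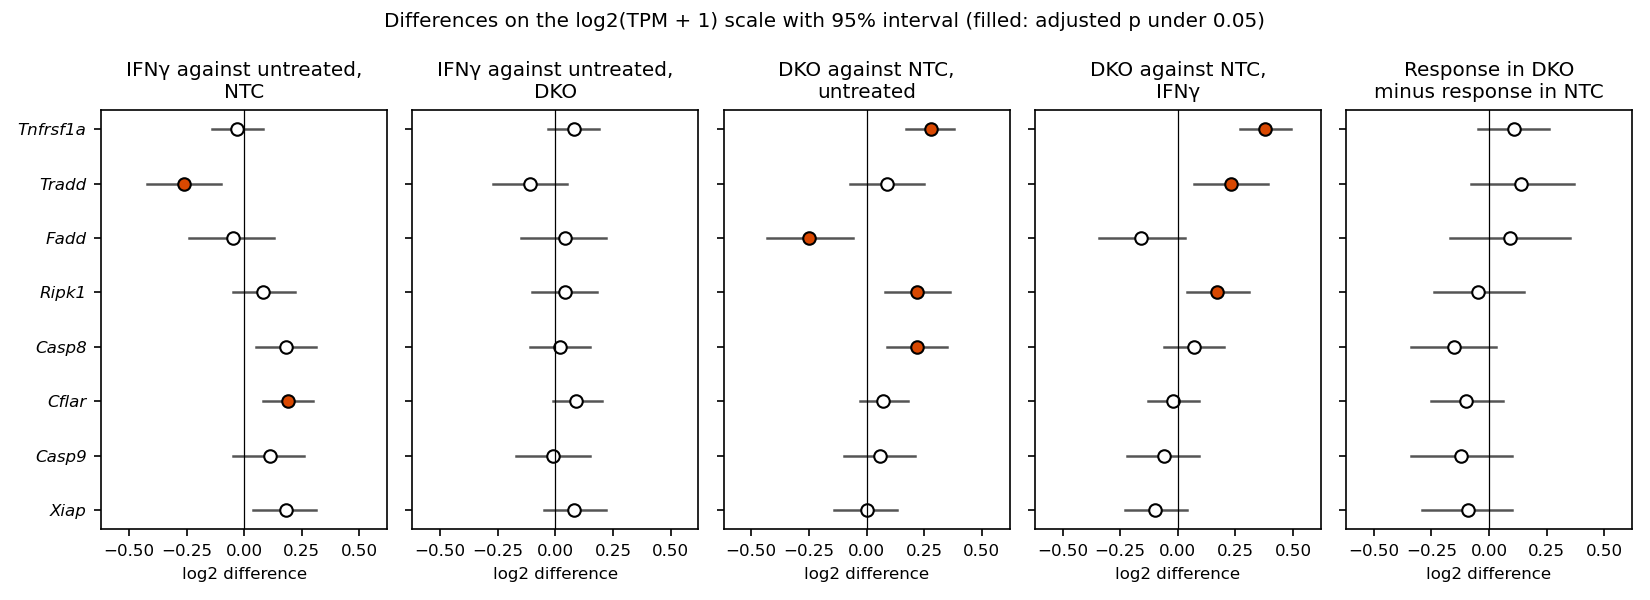
Log2 differences of the 8 genes on the log2(TPM + 1) scale (horizontal axes) with 95% intervals, for the 4 comparisons of groups and for the difference between the responses, with filled points for an adjusted p under 0.05. The largest value is that of *Tnfrsf1a* in treated DKO against treated NTC cells, at 0.38, and the DKO response panel holds no filled point.

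Set against all tested genes, the share of the 8 called was close to the background in most comparisons. In the response of NTC cells to IFNγ, 2 of 8 passed the threshold (25.0%), with 12.1% of all tested genes called, 7.31% higher and 4.78% lower. In DKO cells the count was 0 of 8 (limma) against 0.78% of all genes (0.677% higher and 0.103% lower), and all 8 had unadjusted p-values above 0.05. The difference between the responses, tested as an interaction, called 0 of 8 against 0.0343% of all genes (0.00857% higher and 0.0257% lower), with values between −0.15 and 0.14 and, again, no unadjusted p under 0.05. Untreated DKO against untreated NTC cells called 4 of 8 (50%), 3 higher and 1 lower, where 36.4% of all genes were called, 17.0% higher and 19.4% lower. With IFNγ, 3 of 8 (37.5%) were called, all higher, where 43.3% of all genes were called, 19.5% higher and 23.9% lower.

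The sizes of the differences were also near the background. The median absolute log2 difference of the 8 genes was 0.14 for the response in NTC, 0.06 for the response in DKO, 0.15 for untreated and 0.13 for treated DKO against NTC, next to 0.11, 0.06, 0.15 and 0.18 over all tested genes. Groups did not overlap for 5 of the 8 genes in the NTC response, 4 higher and 1 lower, where this held for 36.6% of all genes, 21.8% higher and 14.7% lower. In the DKO response the count was 1 of 8, higher, against 14.7% of all genes, 9.46% higher and 5.29% lower. Between untreated genotypes it was 4 of 8, 3 higher and 1 lower, against 51.6%, 24.8% higher and 26.8% lower, and between treated genotypes 3 of 8, all higher, against 49.9%, 22.7% higher and 27.2% lower. The split of all calls by direction depended on the scaling: 60.5% of genes called in the NTC response were higher as deposited and 45.1% with libraries scaled to the same total, while between untreated genotypes the share was 46.7% against 60.6% and between treated genotypes 44.9% against 65.2%. Median-ratio scaling gave 46.0% for the NTC response, and 49.5% both between untreated and between treated genotypes, nearer to the deposited values there.

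Ordered by mean level, most neighbouring conditions overlapped. *Tnfrsf1a* ran from treated NTC over untreated NTC to untreated DKO and treated DKO, and only its step from untreated NTC to untreated DKO, 1.22-fold, was free of overlap. *Casp8* ran in the order untreated NTC, treated NTC, untreated DKO and treated DKO, with a separated first step of 1.13-fold. For *Tradd* the lowest condition was treated NTC, 1.19-fold below treated DKO, and for *Cflar* the separated step was from untreated to treated DKO, 1.07-fold. No neighbouring conditions were separated for *Casp9*, *Fadd*, *Ripk1* or *Xiap*.

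Ratios within a library are free of scaling between libraries and were computed for each initiator caspase and an inhibitor of it. They were not corrected for GC content and length, a correction that moved the *Xiap* response in NTC cells from 0.18 to −0.03. *Casp8* to *Cflar* was 1.40, 1.51 and 1.51 in untreated NTC, 1.45, 1.47 and 1.44 in treated NTC, 1.52, 1.65 and 1.72 in untreated DKO and 1.60, 1.45 and 1.60 in treated DKO libraries. Untreated DKO libraries lay above untreated NTC libraries, with a 1.11-fold difference between the groups, and no other comparison was free of overlap. The two-sided exact permutation test gave p = 0.1 for that comparison, the smallest value that 3 against 3 libraries allow, and an adjusted p = 0.64 over the 8 tests of both ratios. *Casp9* to *Xiap* was 0.550 ± 0.0413 in untreated NTC, 0.523 ± 0.0255 in treated NTC, 0.576 ± 0.0619 in untreated DKO and 0.536 ± 0.0204 in treated DKO libraries (n = 3), with overlap in all 4 comparisons and exact p-values from 0.4 to 0.7.

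**Figure D3:**
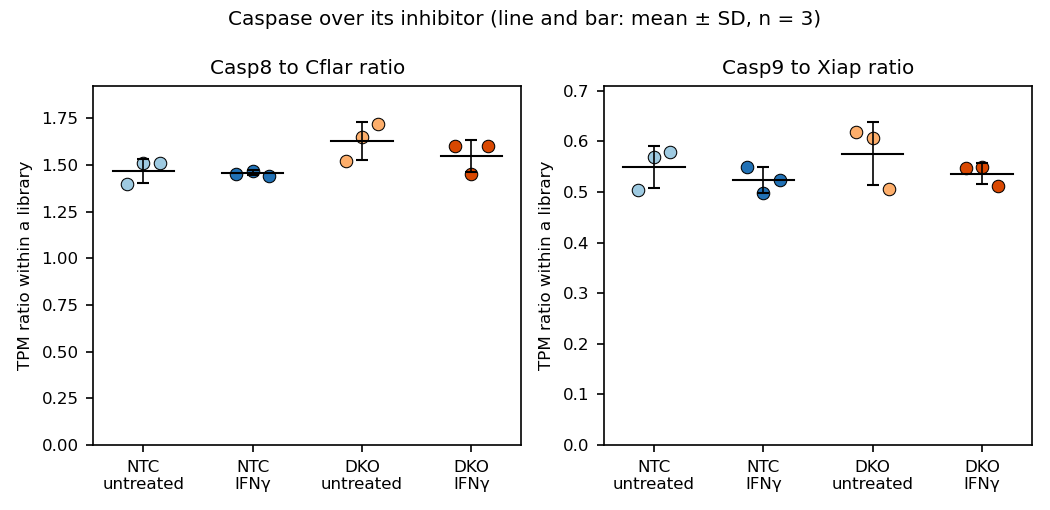
Ratio of TPM within a library (vertical axes, from 0) for *Casp8* over *Cflar* and *Casp9* over *Xiap*, by condition, with 1 point per library and a line and bar for the mean ± SD of 3 libraries. The 3 untreated DKO points of *Casp8* over *Cflar*, 1.52 to 1.72, lie above the untreated NTC points, 1.40 to 1.51.

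Promoter sequence is shown for the 3 genes of the set whose windows held a letter match to an interferon-related motif, since IFNγ signaling acts on genes through GAS and ISRE elements. The sequences are RefSeq windows of GRCm38.p6 on the + strand, from 250 bases before the annotated start to 30 bases after it, and the search ran to 50 bases after it. Capitals mark matches to GAS (TTCNNNGAA) or to the ISRE core (GAAA, any 2 bases, GAAA), searched on both strands. 7 of the 8 genes had an entry, with 10 windows in all, and *Tradd* had none.
*Cflar*, chr1:58711241-58711520, ISRE core on the minus strand: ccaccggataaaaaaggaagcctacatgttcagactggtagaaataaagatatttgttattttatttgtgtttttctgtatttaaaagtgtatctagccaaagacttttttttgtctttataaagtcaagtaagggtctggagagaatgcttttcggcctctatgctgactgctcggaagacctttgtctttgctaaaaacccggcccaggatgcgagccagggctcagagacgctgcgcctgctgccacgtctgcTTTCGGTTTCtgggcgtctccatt
*Tnfrsf1a*, chr6:125349473-125349752, GAS: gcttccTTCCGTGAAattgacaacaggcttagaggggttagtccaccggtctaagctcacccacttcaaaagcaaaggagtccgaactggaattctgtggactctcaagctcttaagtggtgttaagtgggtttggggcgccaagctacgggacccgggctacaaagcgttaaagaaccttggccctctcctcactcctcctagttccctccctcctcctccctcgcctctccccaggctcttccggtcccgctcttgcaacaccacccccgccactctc
*Ripk1*, chr13:34002624-34002903, GAS, and GAS overlapping the ISRE core: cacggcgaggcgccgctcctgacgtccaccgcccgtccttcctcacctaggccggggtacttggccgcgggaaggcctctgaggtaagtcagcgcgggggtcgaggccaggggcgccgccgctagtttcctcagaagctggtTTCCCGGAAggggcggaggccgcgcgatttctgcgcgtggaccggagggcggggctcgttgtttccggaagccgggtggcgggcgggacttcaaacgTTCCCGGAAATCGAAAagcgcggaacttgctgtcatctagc
Each motif was in 2 of the 10 windows, where GAS was in 8.3% and the ISRE core in 3.44% of the 32851 RefSeq windows of the same length. Of the 3 genes, *Cflar* was called with IFNγ in NTC cells, while *Tnfrsf1a* and *Ripk1* were called between genotypes and not with IFNγ. Relative to the start, the matched letters begin at 7 for *Cflar*, at −244 for *Tnfrsf1a* and at −108, −11 and −5 for *Ripk1*, the last 2 overlapping. The *Ripk1* window lies partly within the stretch shared with *Serpinb6a*. A match describes these letters and is not a measured binding site.

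By Pearson's r of log2(TPM + 1) over the 12 libraries, which share the 4 conditions, the gene most like *Tnfrsf1a* was *Eng* (r = 0.988), at 76.0 to 142 TPM, and the next was *Nacad* (0.983). *Xiap* was most like *Stt3a* (0.980) and *Cenpe* (0.951), *Ripk1* like *Gpd2* (0.973) and *Sorbs2* (0.944), and *Casp8* like *Maoa* (0.959) and *Kdelc1* (0.947). For *Tradd* the nearest were *Sssca1* (0.958) and *Hdac5* (0.953), for *Fadd* *Acbd6* (0.937) and *Mtx1* (0.916), and for *Cflar* *Asah2* (0.923) and *Apol9b* (0.902). *Casp9* had the least similar nearest genes, *Acat1* (0.807) and *Depdc5* (0.767). None of the 8 was among the 2 nearest of another.

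Around the 8 genes, 60 further genes of the pathway were listed in 9 groups by role, of which 42 were tested. Ligands had little RNA: 6 of 7 stayed below 1 TPM in all 12 libraries, *Fasl*, *Tnfsf10* (TRAIL), *Tnf*, *Lta*, *Ltb* and *Tnfsf15*. Of the 10 receptors beside *Tnfrsf1a*, 5 were below 1 TPM in all libraries, and *Fas* and *Tnfrsf21* were listed at 0 in all 12. A value of 0 can be a failed estimate in a table without counts. Of the 23022 listed genes, 6899 were at 0 in all 12 libraries. None of 20 housekeeping genes was at 0 in any library. That check covers other genes and cannot tell whether the 0 of *Fas* or *Tnfrsf21* is a failed estimate.

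**Figure D4:**
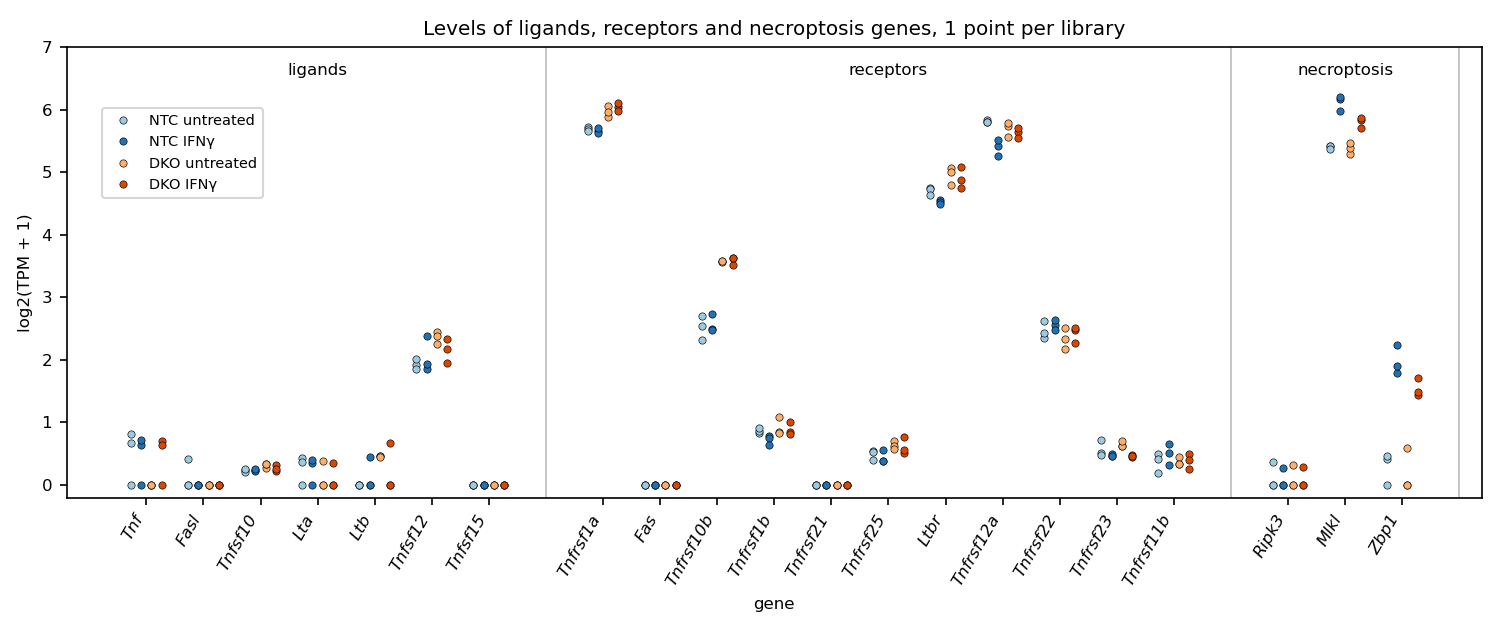
Levels of ligand, receptor and necroptosis genes as log2(TPM + 1) (vertical axis) by gene (horizontal axis), with 1 point per library and color by condition. *Tnfrsf1a*, *Tnfrsf12a* and *Ltbr* lie highest among the receptors, *Fas* lies at 0 in every library, and *Tnfrsf10b* is split by genotype.

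*Tnfrsf10b*, the mouse receptor for TRAIL, showed the largest genotype difference of the 4 receptors tested. It was 4.84, 3.96 and 5.54 TPM in untreated NTC and 4.62, 4.60 and 5.64 TPM in treated NTC libraries, and 11, 10.8 and 11 TPM in untreated DKO and 11.3, 10.4 and 11.3 TPM in treated DKO libraries. The genotypes did not overlap, and the log2 difference was 1.06 in untreated cells (SE 0.0985, adjusted p = 3.62e-06) and 1.02 in treated cells (SE 0.0985, adjusted p = 4.29e-06), kept in every alternative run. *Ltbr*, the lymphotoxin β receptor, was also higher in treated DKO cells (0.37, adjusted p = 0.00313). *Tnfrsf12a*, the receptor for TWEAK, fell with IFNγ in NTC cells by 0.41 (adjusted p = 0.00523), from 55.2 ± 0.916 to 41.3 ± 3.90 TPM, and stood at 50.8 and 48.6 TPM in DKO cells, where the response was −0.06 (adjusted p = 0.83). Those 2 responses did not differ past the threshold (difference 0.35, adjusted p = 0.364).

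Within the TNFR1 complex, 17 of 18 listed genes were tested, and between untreated genotypes 2 were higher and 7 lower in DKO, where 36.4% of all genes were called, 17.0% higher and 19.4% lower. With IFNγ 1 was higher and 8 were lower, where the background was 43.3%, 19.5% higher and 23.9% lower. The median log2 difference was −0.16 in both comparisons, against −0.01 over all genes. Of the 3 subunits of the linear ubiquitin ligase, *Rbck1* (HOIL-1) went from 93.5 ± 3.16 TPM in untreated NTC to 58.4 ± 3.35 TPM in untreated DKO cells (log2 difference −0.67, adjusted p = 6.83e-06). *Sharpin* had an untreated difference of −0.30 (adjusted p = 0.00177) and a treated difference of −0.12, not called (adjusted p = 0.139), and *Rnf31*, the catalytic subunit, was called in neither (−0.14 and −0.04, adjusted p = 0.292 and 0.786). *Spata2*, which links the deubiquitinase CYLD to the complex, was lower by 0.56 in untreated cells (adjusted p = 1.03e-05), while *Otulin*, which cuts linear chains, was not called (−0.06 and −0.01). *Tab1* and *Tab2*, partners of the kinase TAK1, had untreated differences of −0.39 and −0.41 (adjusted p = 0.000537 and 0.00218), and with IFNγ *Tab2* was called (−0.37, adjusted p = 0.0036) and *Tab1* was not (−0.16, adjusted p = 0.0715). *Birc3* (cIAP2) rose in untreated DKO cells, from 2.12 ± 0.482 to 3.62 ± 0.361 TPM (0.58, adjusted p = 0.00201), but with IFNγ the genotypes overlapped (0.09, adjusted p = 0.56). *Ikbkb*, a kinase of the NF-κB route, was higher in untreated DKO cells by 0.21 (adjusted p = 0.00687). All of the untreated calls named here were kept in each fit without 1 library.

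The genes of the pathway with the largest responses to IFNγ lay outside the 8. *Mlkl*, the executioner of necroptosis, was 41.7, 41.7 and 40.2 TPM in untreated NTC and 62.1, 70.6 and 72.4 TPM in treated NTC libraries, a rise of 0.71 (SE 0.0645, adjusted p = 1.36e-05). In DKO cells it rose by 0.42 (adjusted p = 0.00389), from 40.8 ± 2.57 to 54.7 ± 2.94 TPM, and treated DKO cells held less than treated NTC cells (−0.31, adjusted p = 0.00163). The 2 responses of *Mlkl* did not differ past the threshold (limma, difference −0.3, adjusted p = 0.364). *Zbp1*, a sensor that can engage necroptosis, went from 0.338, 0 and 0.380 TPM to 2.47, 2.72 and 3.70 TPM with treatment in NTC libraries. In DKO libraries it went from 0, 0.511 and 0 TPM to 2.27, 1.70 and 1.81 TPM. It passed the threshold in both genotypes (1.68 and 1.35, adjusted p = 0.000131 and 0.00169), on a scale that understates changes near 1 TPM. Its 2 responses did not differ past the threshold either (limma, difference −0.33, adjusted p = 0.615). *Ripk3*, the kinase that activates MLKL, was at 0.286 TPM or less in all 12 libraries.

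*Xaf1*, which encodes an XIAP-binding protein, rose from 2.93 ± 0.114 to 9.42 ± 1.27 TPM in NTC cells (1.40, adjusted p = 3e-07) and from 3.99 ± 0.177 to 6.67 ± 0.351 TPM in DKO cells (0.62, adjusted p = 0.00234). The difference between these responses, −0.78, did not pass (adjusted p = 0.0709). *Xaf1* was higher in DKO than in NTC cells when untreated (0.35, adjusted p = 0.0091) and lower when treated (−0.44, adjusted p = 0.0018). *Serpinb9*, the mouse inhibitor of granzyme B, rose in NTC cells from 1.29 ± 0.136 to 4.19 ± 0.347 TPM (1.18, adjusted p = 0.000138). In DKO cells it was 1.67 ± 0.340 TPM without and 2.99 ± 0.710 TPM with IFNγ (0.57, adjusted p = 0.0856). The 2 responses of *Serpinb9* did not differ past the threshold (limma, difference −0.61, adjusted p = 0.364). With IFNγ *Serpinb9* was lower in DKO than in NTC cells (limma, −0.39, adjusted p = 0.0307). That call was kept in 8 of 12 fits without 1 library and lost under same-total scaling and GC content and length correction. *Serpinb9b*, the other granzyme inhibitor listed, was called higher in the same comparison (limma, 0.38, adjusted p = 0.045). Its libraries overlapped, and 3 of 12 fits kept the call.

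**Figure D5:**
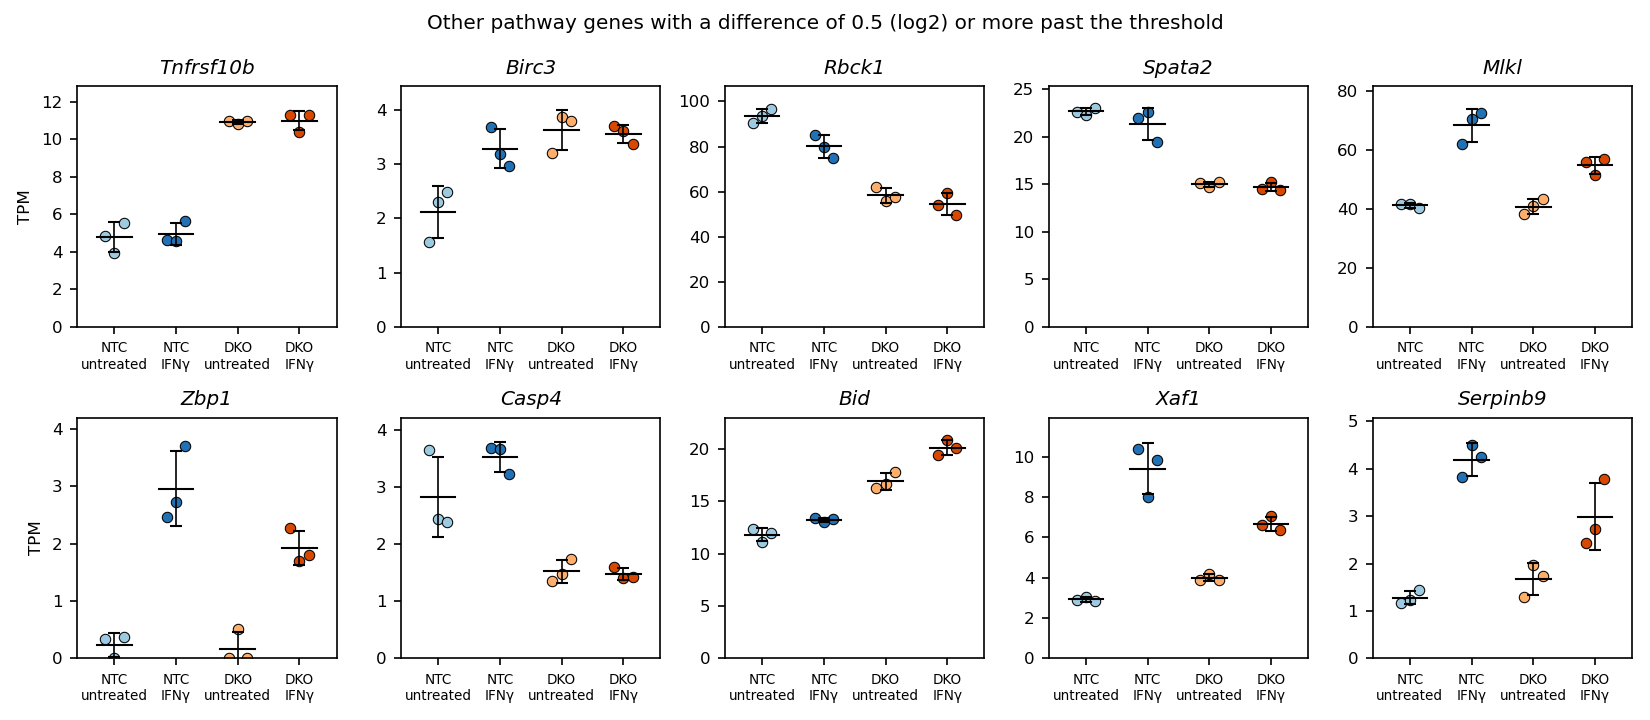
TPM (vertical axes, from 0) of the 10 other pathway genes with a called log2 difference of at least 0.5 in any comparison, by condition, with 1 point per library and a line and bar for the mean ± SD of 3 libraries. *Tnfrsf10b* and *Bid* are higher, and *Rbck1*, *Spata2* and *Casp4* lower, in DKO libraries, and *Mlkl*, *Zbp1*, *Xaf1* and *Serpinb9* lie highest in treated NTC libraries.

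Among the other caspases, *Casp6*, an effector caspase, rose from 28 to 35 TPM between untreated genotypes (0.31, adjusted p = 0.00231). *Casp2* and the inflammatory *Casp4* were lower in the same comparison, with log2 differences of −0.21 (adjusted p = 0.00962) and −0.59 (adjusted p = 0.00236). The level of *Casp4* was low, at 2.83 ± 0.709 TPM in untreated NTC and 1.52 ± 0.199 TPM in untreated DKO cells. With IFNγ the value of *Casp2* was −0.12, not called (adjusted p = 0.101), that of *Casp4* was −0.87 (adjusted p = 0.000113) and that of *Casp6* was 0.22 (adjusted p = 0.018), a call lost without treated NTC replicate 1 or 2 or treated DKO replicate 2 (up to 0.0706).

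*Bid*, the substrate through which caspase 8 reaches mitochondria, was 12.3, 11.1 and 12 TPM in untreated NTC and 16.3, 16.6 and 17.8 TPM in untreated DKO libraries, and 13.4, 13.0 and 13.3 TPM in treated NTC and 19.4, 20.8 and 20.1 TPM in treated DKO libraries. The groups did not overlap, with differences of 0.49 (adjusted p = 2.96e-05) and 0.57 (adjusted p = 7.02e-06). *Apaf1*, the scaffold that activates caspase 9, was higher in untreated DKO cells by 0.28 (adjusted p = 0.00156), with 0.14 in treated cells, not called (adjusted p = 0.0566), whereas *Htra2*, whose product is released from mitochondria and binds XIAP, was lower by 0.21 (adjusted p = 0.00193). The calls of *Bid* in both treatments and of *Apaf1*, *Htra2*, *Casp2*, *Casp4* and *Casp6* without IFNγ were kept in each fit without 1 library.

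Over the 9 groups, 7 of the 42 tested genes were called higher and 4 lower in the NTC response (26.2%), 3 higher in the DKO response (7.14%) and none in the difference between responses, against 0.0343% of all genes. At an unadjusted p under 0.05, 7 of the 42 and 1340 of all tested genes passed in that difference. Between genotypes 11 were higher and 11 lower without IFNγ (52.4%) and 10 higher and 14 lower with it (57.1%). These shares stand beside the same background of 12.1%, 0.78%, 36.4% and 43.3% as the 8 genes, and the median absolute log2 difference over the 42 genes was 0.12, 0.06, 0.21 and 0.20.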

How the data were processed

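RNA-seq of 12 B16-F10 libraries was analysed, 3 for each of 4 conditions, grouped by the genotype and treatment in the sample labels. The deposited values are TPM computed by the authors, although the table is named as counts. RSEM 1.2.4, Bowtie and TopHat 20.8b are named in the submitters' processing notes. Libraries were poly(A)-selected and unstranded. TPM keep no read depth, and how libraries were scaled to each other is not given in the sources used here. Precision was therefore taken from the spread between replicates.

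The count test could not be used on TPM. limma 3.58.1 (R 4.3.3) was run on log2(TPM + 1) of genes that reached 1 TPM in 3 or more libraries, with 1 mean per condition and a variance trend. Log2 differences are on that scale and understate changes of low genes. The 5 comparisons were the IFNγ response in NTC and in DKO cells, the difference between them, and the genotype difference in untreated and in treated cells. Benjamini-Hochberg adjustment ran over all 11663 tested genes with a threshold of 0.05. Ratios were compared by two-sided exact permutation tests. The fit was also run on simulated libraries of all 4 conditions, with 200 genes changed in treated NTC libraries. It recovered 58 of 200 at a true log2 change of 0.25, 157 at 0.5 and 191 at 1. The simulated noise was independent between libraries and only 200 genes changed, so these counts do not give the power of the comparisons reported here.

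The members and lists were chosen with earlier results of these data known. Named genes are the 8 members, pathway genes past the threshold or listed as ligands, receptors or necroptosis genes, the 2 genes most like each member, and *Mbnl1*, *Mbnl2* and *B2m* as checks, with *Serpinb6a*, *Cela2a*, *Ctrc*, *Rnf31* and *Otulin* named after their values were seen. Alternatives were a pseudocount of 0.1, no filter, a replicate block, each library left out, only the libraries compared, median-ratio scaling, scaling to an equal total, and correction for GC content and length alone and with the block. Loci came from GENCODE M21 (GRCm38) and promoters from RefSeq (GRCm38.p6). The row of *Otulin* and that of *Adgre1* were found under older symbols, and *Tnfrsf22* has 2 rows, of which 1 was used. Splicing was not analysed here, and some genes of the lists are not reported here.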

Additional observations from a re-analysis of the deposited data

Results flagged for a closer look

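*B2m*, used as a check of treatment, was the only gene named here whose response to IFNγ differed between genotypes by the interaction test. It rose from 311 ± 15.3 to 1860 ± 65.6 TPM in NTC cells (log2 difference 2.58) and from 265 ± 10.3 to 1030 ± 85.9 TPM in DKO cells (1.95, n = 3 each), a difference between the responses of −0.63 (SE 0.0821, adjusted p = 0.0256, limma). Leaving out each library in turn gave −0.68 to −0.56, with adjusted p-values up to 0.102, and kept the call in 4 of 12 fits, those without treated NTC replicate 1, untreated DKO replicate 1 or treated DKO replicate 2 or 3. None of the 8 death receptor and caspase genes met that test.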

How the results depend on the processing

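*Tnfrsf1a* kept both genotype calls in all 20 alternatives of each comparison. The number of the 8 genes called in the NTC response (2) was 1 with no filter, 1 with libraries scaled to the same total, 0 under correction for GC content and length, 0 with that correction and the block, and 0 to 4 without 1 library. It was 2 to 4 between untreated genotypes (4) without 1 library, and between treated genotypes (3) 1 to 3 without 1 library and 1 with only the libraries compared. Over all genes, the NTC response (1411) gave 897 with no filter, 623 under correction for GC content and length, 472 with that correction and the block, and 319 to 2020 without 1 library, and the difference between responses (4) gave 10 with no filter and 0 to 7 without 1 library. The causes were not tested.

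Replicate numbers did not pair the libraries: r of deviations ran from −0.179 to 0.182 over the 18 same-numbered pairs and from −0.219 to 0.213 over the 36 others, and 2 of 12 libraries correlated best with their own number. With the replicate block the 5 comparisons called 1118, 75, 2, 4063 and 4899 genes, and 2, 0, 0, 4 and 2 of the 8.

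Some values turned sign, among them the called *Htra2* response in NTC cells (−0.16) and that of *Xiap* (0.18), both under correction for GC content and length. Without 1 library the sign changed for *Fadd* in the NTC response (−0.16 to 0.05) and in the difference of responses (−0.01 to 0.20), in the DKO response *Casp8* (−0.04 to 0.07), *Casp9* (−0.09 to 0.04) and *Ripk1* (−0.0031 to 0.08), *Xiap* between untreated genotypes (−0.03 to 0.04), *Cflar* between treated genotypes (−0.05 to 0.01), the *Casp8* to *Cflar* ratio in the NTC response (−0.05 to 0.0042) and the treated *Casp9* to *Xiap* ratio (−0.00075 to 0.07). Under correction for GC content and length, with or without the block, they were *Tnfrsf1a* (0.06), *Xiap* (−0.03) and *Htra2* (0.0017) in the NTC response, *Ripk1* (0.0017) and *Xiap* (0.07) in the difference of responses, untreated *Xiap* (0.03), and treated *Cflar* (0.04) and *Xiap* (0.10). Scaling to the same total turned untreated *Xiap* (0.05) and treated *Casp9* (0.02) and *Cflar* (0.06), and median-ratio scaling untreated *Xiap* (0.01).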
